A study of Mus musculus with 12 samples.

Results

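The Wnt ligands were examined as a family in mouse tongue tissue exposed to the oral carcinogen 4-nitroquinoline 1-oxide (4NQO). Wnts are secreted signalling proteins, and 10 genes were taken as members: Wnt3, Wnt4, Wnt5a, Wnt5b, Wnt6, Wnt7b, Wnt9a, Wnt10a, Wnt10b and Wnt11. They are 10 of the 32498 named genes in the data and 10 of the 19 mouse Wnt genes. They were chosen from earlier results of these data, as ligands measured above 0.1 FPKM and with the level of Wnt6 in the treated and control groups in view. Their levels and their differences between the groups are therefore given as a description, without a test. FPKM is a unit that divides reads by library total and gene length and so allows levels of different genes to be compared.

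The study asked how gallic acid (GA), a plant phenol, changes oral carcinogenesis. All mice were C57BL/6, were 5 weeks old at purchase and drank water with 4NQO at 100 µg/mL for 16 weeks. The GA group (6 libraries) was gavaged with GA at 100 mg/kg 5 times a week from week 4, and the vehicle group (6 libraries) received the carrier without GA. Both groups thus carry 4NQO exposure, and no library came from tongue without it. The labels name the material as tongue tumor with its surrounding tissue, so a library mixes cell types, and fewer cells of a type and less RNA per cell cannot be told apart. Each library was taken as 1 mouse, as the labels number the replicates but identify no animals. The p-values given below for other genes measure the spread between these libraries.

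A Wnt protein is given a lipid by the acyltransferase Porcn and is carried to the cell surface by Wls. It binds a Frizzled receptor together with a co-receptor. With Lrp5 or Lrp6 the signal stabilises beta-catenin, which enters the nucleus with TCF/LEF factors and turns on genes such as Axin2. Other ligands, with Wnt5a as the best known, act through Ror receptors or the planar polarity proteins, without beta-catenin. In the tongue, Wnt signals pattern the papillae and keep the basal cells of the epithelium and the taste buds renewing.

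Promoter sequence is shown for Wnt6, the ligand with the largest difference between the groups, and for Wnt11, whose promoter alone among the matched members held a TATA box, for contrast. RefSeq promoters (build GRCm38.p6) matched 7 of the 10 members, with 10 start sites. Wnt5a, Wnt7b and Wnt10a had no entry. The 250 bases before the start are printed 5′ to 3′ on the gene's strand, with GC boxes (GGGCGG, or CCGCCC for the other strand) in capitals. Wnt6 is at chr1:74771642-74771891 and Wnt11 at chr7:98834862-98835111, both on the plus strand.
Wnt6: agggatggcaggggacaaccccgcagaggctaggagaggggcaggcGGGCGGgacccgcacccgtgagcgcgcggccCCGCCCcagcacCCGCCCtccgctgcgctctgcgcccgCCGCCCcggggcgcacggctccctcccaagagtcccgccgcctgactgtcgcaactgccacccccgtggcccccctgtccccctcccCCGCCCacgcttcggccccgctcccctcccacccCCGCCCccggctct
Wnt11: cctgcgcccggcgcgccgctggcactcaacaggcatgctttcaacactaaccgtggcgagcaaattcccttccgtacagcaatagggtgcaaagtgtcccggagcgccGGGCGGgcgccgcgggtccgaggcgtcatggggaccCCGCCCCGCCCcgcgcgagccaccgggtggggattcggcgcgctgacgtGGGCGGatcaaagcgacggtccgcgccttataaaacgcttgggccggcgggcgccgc

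On either strand, the letters TATAAA of a TATA box were searched. The CCAAT box was searched by the letters of its name. The TCF/LEF core was searched as the letters CTTTGA. The Wnt6 promoter held 6 GC boxes and none of these motifs. This Wnt11 promoter held 4 GC boxes, the third overlapping the second, with 1 TATA box and 1 TCF/LEF core, on the other strand. A GC box stood in 7 of the 10 member promoters, from 6 of the 7 matched members with Wnt10b as the exception, and in 32.7% of all 32851 promoters searched. A TCF/LEF core stood in 2 of the 10, 1 of Wnt5b and 1 of Wnt11, and in 13.8% of all promoters. The TATA box was present in 12.4% of all promoters and the CCAAT box, held by Wnt3 alone, in 33.8%. GC content ran from 53.2% to 85.2% over the 10 member promoters, and the median over all promoters was 52.4%. A match of letters is a description of sequence and does not show a bound site.

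Several members lie beside another Wnt gene. On chromosome 1 of GRCm38, Wnt6 (74771892 to 74785322) ends 6.2 kb before Wnt10a (74791516 to 74804179) on the same strand. Wnt9a and Wnt3a lie 16.2 kb apart on chromosome 11, Wnt3 and Wnt9b 24.3 kb apart on the same chromosome, and Wnt10b and Wnt1 11.7 kb apart on chromosome 15, each pair on opposite strands. Overlap with another annotated gene covered 4.58% of the exon bases of Wnt5a, 6.61% of Wnt7b and 8.80% of Wnt11. Reads in those bases cannot be assigned to either gene with certainty, since the sources used here do not say whether counting used strand.

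The vehicle libraries held 18041646 to 21770681 reads and the GA libraries 21237313 to 25190018. Reads on Y-linked genes were present in 4 of 6 vehicle libraries (1 to 4) and 1 of 6 GA libraries (1), so the sexes were unevenly spread. Lipf, a lipase of tongue glands, stood between 8765 and 25476 FPKM in vehicle libraries 3 and 5 and GA library 2 and at or below 0.508 FPKM in the other 9. All 12 epithelial markers were above 9 FPKM in every library, and 10 of 10 skeletal muscle markers were measured, with a summed level of 1254 to 10535 FPKM. Of 16852 genes whose mean reached 0.1 FPKM, limma called 0 between the groups (0%) at the limits of the study's methods, an adjusted p below 0.1 and a log2 change of 0.58 or more in either direction. At an unadjusted p below 0.05 it found 367 genes (2.18%). The study used another test, edgeR on read counts, at the same limits and reported significantly changed genes. Why the results differ was not tested.

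Of the 19 Wnt genes, 13 had a mean of at least 0.1 FPKM, the 10 members together with Wnt3a, Wnt2b and Wnt16. Of these, 10 reached 0.1 FPKM in all 12 libraries, 9 of them members. Wnt10b was the member nearest to the limit, with a mean of 0.263 FPKM and 10 of 12 libraries at or above 0.1. The ligands just inside it were Wnt2b at 0.259 FPKM and Wnt16 at 0.137 FPKM, and those just outside were Wnt2 at 0.0716 FPKM and Wnt7a at 0.0596 FPKM. Wnt9b had a mean of 0.0583 FPKM. Wnt1, Wnt8a and Wnt8b were listed at 0 in 11, 11 and 9 of 12 libraries.

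Wnt4, Wnt10a and Wnt7b made up most of the Wnt message. Together they held 65.9% to 82.9% of the summed level of the 19 genes in a library, with a median of 79.6%, and Wnt4 alone had a median share of 49.0%. The summed level of all 19 was 88.1 ± 13.3 FPKM (SD, n = 6) with vehicle and 93.1 ± 17.1 FPKM (SD, n = 6) with GA. The sums ran from 67.6 to 106 FPKM and from 64.9 to 112 FPKM, so the groups overlapped almost entirely. Wnt6 had a median share of 0.970%.

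**Figure D1:**
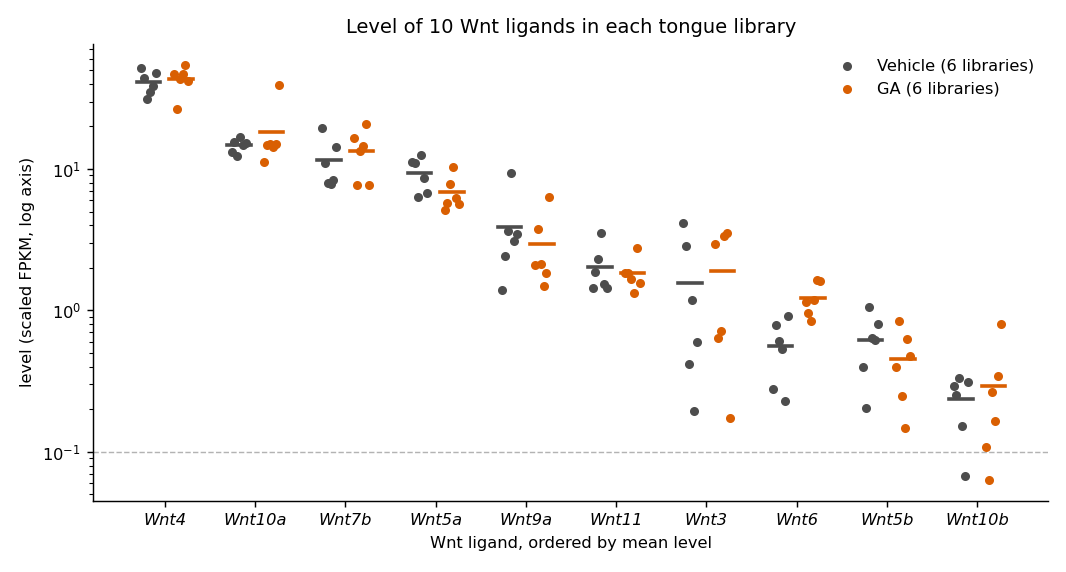
Level of each of the 10 Wnt ligands in every library, in scaled FPKM on a log axis, with vehicle in grey and GA in orange (6 libraries each), horizontal bars at the group means and a dashed line at 0.1 FPKM. The ligands run from Wnt4, with group means of 41.4 and 43.3 FPKM, down to Wnt10b, with 0.235 and 0.291 FPKM, and GA library 6 stands out in Wnt10a at 39.5 FPKM.

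The order of the mean levels over the 12 libraries was Wnt4, Wnt10a, Wnt7b, Wnt5a, Wnt9a, Wnt11, Wnt3, Wnt6, Wnt5b and Wnt10b. Wnt4 was above Wnt10a in 12 of 12 libraries and Wnt5a above Wnt9a in 11 of 12. The other neighbours traded places between libraries. Wnt10a was above Wnt7b in 8 of 12, Wnt7b above Wnt5a in 9, Wnt9a above Wnt11 in 10 and Wnt11 above Wnt3 in 7. Wnt3 was above Wnt6 in 6 of 12, Wnt6 above Wnt5b in 8 and Wnt5b above Wnt10b in 8.

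Wnt6, a ligand of embryonic and adult epithelia, was the member that differed most between the groups. Its level with vehicle ran from 0.230 to 0.909 FPKM with a median of 0.571 (11 to 43 reads per library). With GA it ran from 0.845 to 1.65 FPKM with a median of 1.16 (45 to 92 reads). All 6 GA libraries were above the vehicle median and 5 of 6 above the highest vehicle library, while GA library 3 fell below vehicle library 6. Among all tested genes, 0.0415% had every GA library above every vehicle library, 2.94% had all 6 GA libraries above the vehicle median and 0.309% had at least 5 above the highest vehicle library. As the rule used this contrast, nothing is read from these shares. The group means were 0.558 ± 0.270 FPKM (SD, n = 6) with vehicle and 1.23 ± 0.333 FPKM (SD, n = 6) with GA, a ratio of 2.21. On the log2(FPKM + 0.1) scale the difference was 1.10 with a standard error of 0.304, and 124 of the 16852 genes (0.736%) had a difference at least as large.

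Wnt6 was also set against the other 9 members inside each library. The log2 level of Wnt6 minus the mean log2 level of the others ran from -3.42 to -1.84 with vehicle, with a mean of -2.56 ± 0.616 (SD, n = 6). With GA it ran from -1.73 to -1.09, with a mean of -1.41 ± 0.206 (SD, n = 6). The lowest GA library lay above the highest vehicle library, and the difference of the means was 1.15 on the log2 scale (standard error 0.265). The same complete separation, against the same 9 genes, was seen for 0.0297% of all tested genes. As the rule named this comparison, nothing is read from this share either. The difference was positive against each of the 9 singly, from 0.78 against Wnt3 (standard error 0.905) to 1.55 against Wnt5a (standard error 0.425).

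**Figure D2:**
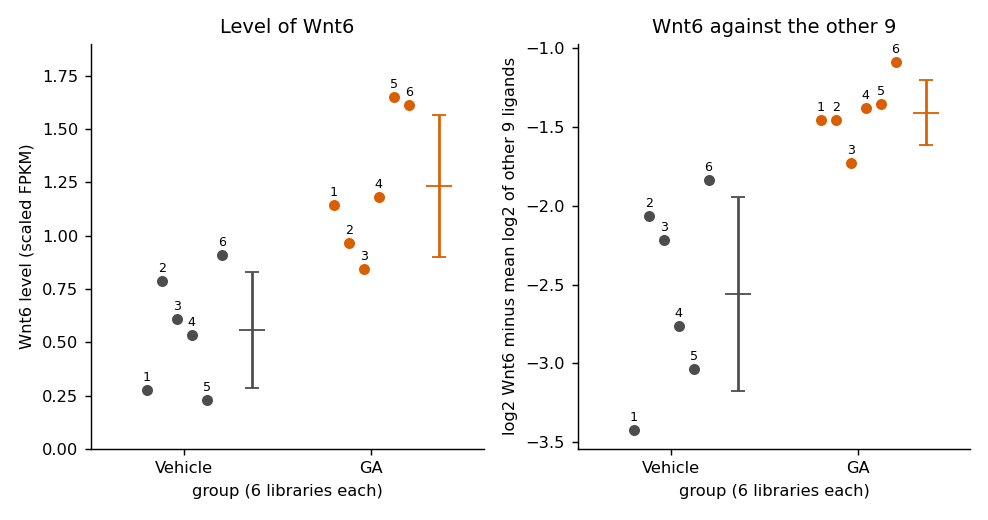
Left, level of Wnt6 in scaled FPKM; right, log2 level of Wnt6 minus the mean log2 level of the other 9 ligands; each point is a library with its replicate number, and the cross bars give the group mean ± SD (n = 6). In the left panel GA library 3 at 0.845 FPKM lies below vehicle library 6 at 0.909 FPKM, and in the right panel the groups do not overlap.

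The group difference of Wnt6 was also computed inside the subsets that set the libraries apart. Where Y-linked reads were absent (2 vehicle and 5 GA libraries) the log2 difference was 1.18, and where they were present (4 vehicle and 1 GA) it was 1.00. Without the 3 libraries of high Lipf it was 0.99. Libraries with neither Y-linked reads nor high Lipf numbered 1 vehicle and 4 GA, and their difference was 0.45. The lone vehicle library in that subset was replicate 6, which had the highest Wnt6 level of its group.

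Wnt10a, the neighbour of Wnt6, is needed for teeth, hair and the papillae of the tongue. Its level ran from 12.3 to 16.9 FPKM with vehicle (median 15.0) and from 11.2 to 39.5 FPKM with GA (median 14.9). The mean was 14.7 ± 1.66 FPKM (SD, n = 6) with vehicle and 18.3 ± 10.5 FPKM (SD, n = 6) with GA, where replicate 6 stood far above the other 5 libraries. The log2 difference was 0.19 (standard error 0.266) and -0.06 without that library. Wnt10b, which acts in hair follicle and papilla placodes, ran from 0.0673 to 0.332 FPKM with vehicle (median 0.272) and from 0.0632 to 0.80 FPKM with GA (median 0.215). It rested on 5 to 71 reads per library, its highest value again came from GA library 6, and its log2 difference of 0.06 (standard error 0.420) was -0.23 without that library.

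Wnt4, a ligand of kidney and reproductive tract development that is also made by stratified epithelia, was the most abundant member and the steadiest. It ran from 31.02 to 51.8 FPKM with vehicle (median 41.4) and from 26.5 to 54.6 FPKM with GA (median 44.8). The ranges overlapped, and the log2 difference was 0.06 (standard error 0.184). Wnt7b, which signals through beta-catenin in skin and lung, ran from 7.79 to 19.6 FPKM with vehicle (median 9.71) and from 7.71 to 21.0 FPKM with GA (median 14). Its log2 difference was 0.22 (standard error 0.324).

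Wnt3, a beta-catenin ligand of the limb bud and the intestinal crypt, varied most between libraries, over a 23.9-fold range. It ran from 0.194 to 4.18 FPKM with vehicle (median 0.896) and from 0.175 to 3.55 FPKM with GA (median 1.83), on 13 to 238 reads per library. Both groups held high libraries, vehicle 1 and 2 and GA 1, 4 and 5, all above 2.8 FPKM, and the rest were at or below 1.19 FPKM. The log2 difference of 0.31 had a standard error of 0.875. It was 1.35 among the 7 libraries without Y-linked reads and -0.26 without the 3 libraries of high Lipf.

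Wnt5a, Wnt5b and Wnt11, the members best known for routes without beta-catenin, had lower means with GA, as had Wnt9a. Wnt5a, the main ligand of Ror receptors, ran from 6.34 to 12.6 FPKM with vehicle (median 9.82) and from 5.15 to 10.4 FPKM with GA (median 5.99). In 5 of 6 GA libraries it was below the vehicle median, GA 4 being the exception at 10.4 FPKM, and in 4 of 6 below the lowest vehicle library, GA 3 at 7.87 FPKM lying above it as well. The share of all tested genes with such counts was not computed. As the rule used this contrast, nothing is read from the counts. The means were 9.44 ± 2.61 FPKM and 6.84 ± 1.96 FPKM (SD, n = 6 each), and the log2 difference was -0.45 (standard error 0.227). Among the 7 libraries without Y-linked reads the difference was -0.12.

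Wnt5b, a close relative of Wnt5a, ran from 0.203 to 1.07 FPKM with vehicle (median 0.628) and from 0.146 to 0.844 FPKM with GA (median 0.439). Its log2 difference was -0.38 (standard error 0.401), with 9 to 55 reads per library. Wnt11, which guides cell movement in the embryo through the planar polarity route, ran from 1.44 to 3.53 FPKM with vehicle (median 1.70) and from 1.32 to 2.78 FPKM with GA (median 1.75), and its log2 difference of -0.10 (standard error 0.243) was 0.07 without vehicle library 4. Wnt9a, known from joint formation, ran from 1.39 to 9.34 FPKM with vehicle (median 3.28) and from 1.49 to 6.38 FPKM with GA (median 2.12). Its log2 difference of -0.33 (standard error 0.471) was -0.04 without that same library, which held the highest value.

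**Figure D3:**
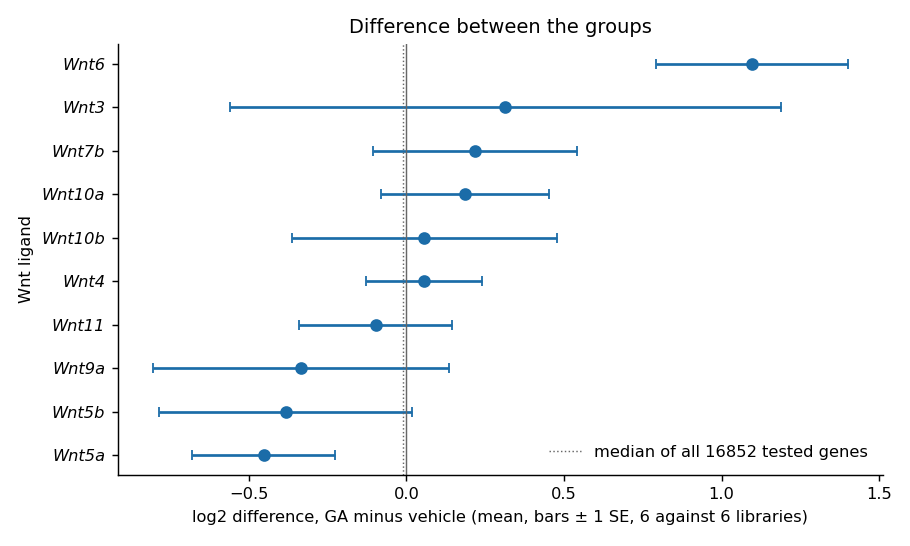
Log2 difference, GA minus vehicle, of each ligand (point) with 1 standard error on each side, 6 against 6 libraries; the dotted line is the median of all 16852 tested genes. Wnt6 lies at 1.10, and the other 9 lie between -0.45 (Wnt5a) and 0.31 (Wnt3).

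In all, 6 members were higher and 4 lower with GA, with a median log2 difference of 0.06. Over all tested genes 47.6% were higher and the median was -0.01. The direction was kept under every alternative that gave a value, with each library left out in turn, for 5 members, Wnt6, Wnt5a, Wnt5b, Wnt7b and Wnt9a. Each of Wnt3, Wnt4, Wnt10a, Wnt10b and Wnt11 changed sign when at least 1 single library was left out.

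Of the ligands outside the member list, Wnt16 had the largest difference. It ran from 0.0212 to 0.444 FPKM with vehicle (median 0.188) and from 0.00939 to 0.148 FPKM with GA (median 0.0686), on 1 to 45 reads per library. All 6 GA libraries were below the vehicle median, as for 3.73% of all tested genes. The log2 difference was -0.77 (standard error 0.372), and in limma the unadjusted p was 0.0590 and the adjusted p 0.9995. Wnt2b (0.28, standard error 0.267) and Wnt3a (0.04, standard error 0.364) did not pass the test either. Wnt3a reached 5.55 FPKM in GA library 6, where Wnt10a and Wnt10b were also highest, against at most 1.94 FPKM in the other 11.

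The ligands did not move as a block between libraries. Over the 45 pairs of members, Pearson's r of the log2 levels across the 12 libraries ran from -0.80 to 0.85 with a median of 0.00474. These are descriptions, and all values of a library share its depth and tissue make-up. Wnt4 and Wnt7b were the most alike (r = 0.85, Spearman's rho = 0.90), and Wnt7b and Wnt3 followed (r = 0.76, rho = 0.79). Wnt7b and Wnt9a were the most opposed (r = -0.80, rho = -0.90), and Wnt9a also ran against Wnt3 (r = -0.64) and Wnt4 (r = -0.58). Wnt10a and Wnt10b had r = 0.63, which fell to 0.03 without GA library 6. Wnt6 had no close partner: its highest r was 0.39 with Wnt10b, its lowest -0.55 with Wnt5a, and its r with the neighbouring Wnt10a was 0.36. Without GA library 6 these r were 0.19 with Wnt10b, -0.49 with Wnt5a and -0.03 with Wnt10a. With the group means removed they were 0.54, -0.27 and 0.31 in the same order.

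**Figure D4:**
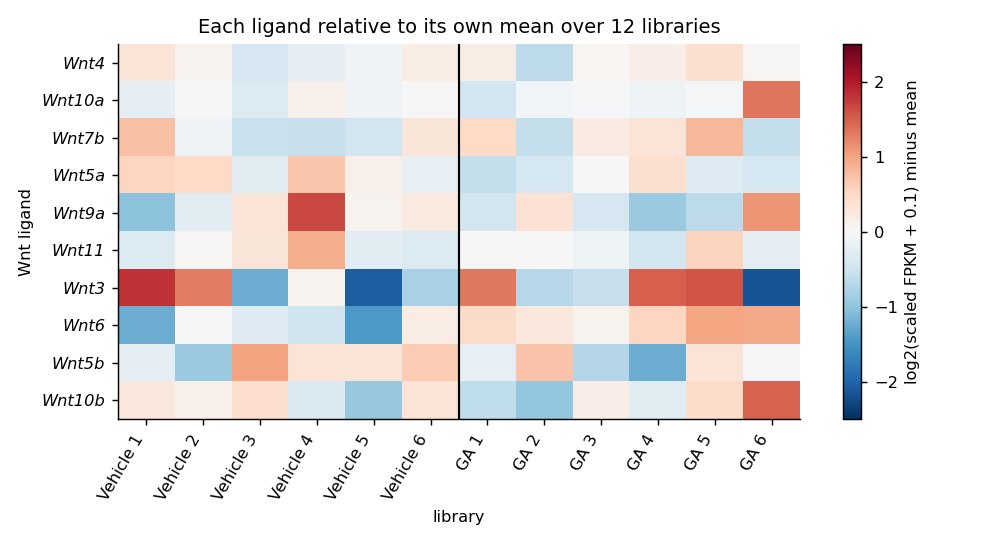
Log2 level of each ligand (rows) in each library (columns, vehicle left of the line and GA right of it), minus the mean of that ligand over the 12 libraries; red is above and blue below the mean. Wnt3 swings most between libraries, over a 23.9-fold range of its level, and GA library 6 is high in Wnt10a, Wnt10b and Wnt9a and low in Wnt3.

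Among the 12166 genes that averaged 1 FPKM or more, those whose pattern over the 12 libraries was most like Wnt6 included Naa40 (r = 0.93), Cep68 (r = 0.84), Nudt12 (r = 0.83) and Lonp1 (r = 0.82). With the group means removed these r were 0.88, 0.80, 0.66 and 0.72. Naa40 encodes a histone acetyltransferase and Lonp1 a mitochondrial protease. The search was extended to the other members after the values of Wnt6 were seen. Each r named here is among the highest of 12166 over only 12 libraries, where unrelated genes can also reach high values. These r were not tested, and no relation is read from them. Wnt3 was followed by Glce (r = 0.96), by Notum (r = 0.95), an enzyme that removes the lipid from Wnt proteins, and by Krt36 (r = 0.95), a hard keratin. Notum ran from 0.22 to 4.48 FPKM and Krt36 from 34.0 to 1251 FPKM. The gene most like Wnt4 by this measure, Lmntd2, had r = 0.95, and Klf5, a transcription factor of basal epithelium, had r = 0.94. The nearest to the others were Atp6v1d for Wnt7b (r = 0.96), Nceh1 for Wnt9a (r = 0.96), Sox15 for Wnt10a (r = 0.95, rho = 0.66, and r = 0.64 without GA library 6), Cnot3 for Wnt5a (r = 0.91), Ncor1 for Wnt10b (r = 0.89), Ttl for Wnt11 (r = 0.89) and Lamp1 for Wnt5b (r = 0.84).

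The members were also compared with marker scores, each the mean log2 level of the markers of a cell type. The 10 members and 5 scores (epithelium, fibroblast, skeletal muscle, neutrophil and endothelium) gave 50 relations over the 12 libraries. None had an adjusted p below 0.05 (permutation tests with 100000 resamples, two-sided, Benjamini-Hochberg over the 50), and 5 by r and 4 by rho had an unadjusted p below 0.05. Members were lower where the neutrophil score was higher in 3 of these. Wnt4 had r = -0.64 (permutation p = 0.0240, adjusted 0.289) and rho = -0.82 (permutation p = 0.00172, adjusted 0.0860), with r = -0.89 without vehicle libraries 4 and 5. Wnt7b had r = -0.68 (permutation p = 0.0113, adjusted 0.247) and rho = -0.62 (permutation p = 0.0334, adjusted 0.418), with r = -0.67 without the same libraries. Wnt10b had r = -0.68 (permutation p = 0.0148, adjusted 0.247) and rho = -0.72 (permutation p = 0.0104, adjusted 0.259), with r = -0.61 without the same libraries and r = -0.42 without the 3 libraries of high Lipf. Within the vehicle and GA groups r was -0.49 and -0.96 for Wnt4, -0.71 and -0.65 for Wnt7b and -0.95 and -0.64 for Wnt10b. GA library 2 had the lowest Wnt4 level and the highest neutrophil score of its group, so the r of Wnt4 leans on it. Over all libraries but GA library 2, r was -0.59 for Wnt4, -0.64 for Wnt7b and -0.63 for Wnt10b.

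Wnt10b also ran against the fibroblast score (r = -0.74, permutation p = 0.00549, adjusted 0.247, and rho = -0.66, permutation p = 0.0231, adjusted 0.384), with r = -0.55 without GA library 6 and vehicle library 5. Wnt4 ran with the epithelium score by r (0.63, permutation p = 0.0289, adjusted 0.289) but less by rho (0.36, permutation p = 0.257, adjusted 0.584). That r was 0.24 without GA library 2 and vehicle library 1, and -0.10 without the 3 libraries of high Lipf, so it rests on those libraries. For Wnt6 the strongest relation was with the neutrophil score (r = -0.57, permutation p = 0.0513, adjusted 0.405, and rho = -0.50, permutation p = 0.10, adjusted 0.494), and r was -0.08 without vehicle libraries 4 and 5. All 8 neutrophil markers were lower on average with GA, with a mean score of 2.67 ± 1.43 (SD, n = 6) with vehicle and 1.88 ± 0.875 (SD, n = 6) with GA. The summed level of these markers was 1122 to 2595 FPKM with vehicle and 235 to 1811 FPKM with GA. That sum mostly reflects S100a8 (87.8 to 1004 FPKM) and S100a9 (130 to 1581 FPKM). No other marker of the list passed the 20.1 FPKM that Retnlg reached, and Retnlg and Mmp8 were at 0 in at least 1 library. The part of neutrophils in the difference of Wnt6 was not tested beyond this relation.

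The rest of the pathway was read with 7 lists of 84 different genes in all, 75 of them measured at 0.1 FPKM or more on average. Some genes are in more than 1 list, so the counts of the lists below partly repeat the same genes. In limma 0 of the 75 were called and 0 had an unadjusted p below 0.05, where 2.18% of all tested genes did. On average 23 were higher and 52 lower with GA (69.3% lower, against 52.4% of all tested genes), and the median log2 difference was -0.08. Of the 12 epithelial markers 11 were also lower on average with GA, with a mean score of 8.99 ± 0.333 (SD, n = 6) with vehicle and 8.78 ± 0.312 (SD, n = 6) with GA. With the epithelium score as a covariate, the 75 pathway genes split into 37 higher and 38 lower. That was 50.7% lower, against 49.3% of all tested genes, so the excess of lower genes was not seen in that fit. A fit that took account of sex, read from the Y-linked genes, gave 30 higher and 45 lower (60% lower, against 53.3%). One that took account of skeletal muscle gave 26 higher and 49 lower (65.3% lower, against 51.2%). Leaving out single libraries gave from 58.7% lower without GA library 2 (against 50.6%) to 76% without GA library 5 (against 51.5%). The cause of the excess was not tested. The values that follow, from the fit of all 12 libraries without a covariate, are log2 differences with limma's standard error. None passed the test.

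Of the 7 genes that process and carry Wnts, 3 were higher and 4 lower. Snx3, which recycles Wls, had the highest level (62.9 FPKM with vehicle, 65.5 with GA) and a difference of 0.05 (standard error 0.101). Porcn differed by -0.15 (standard error 0.235) and Vps29, a retromer subunit, by 0.08 (standard error 0.115). The 16 receptors and co-receptors were 8 higher and 8 lower, and 11 higher and 5 lower with the epithelium covariate. Fzd6 was the most abundant (22.1 and 24.2 FPKM), with a difference of 0.13 (standard error 0.182). Fzd9 exceeded its vehicle median in all 6 GA libraries, as did 2.94% of all tested genes, with a difference of 0.36 (standard error 0.391). Its GA range of 0.395 to 0.768 FPKM lay inside its vehicle range of 0.0965 to 1.17 FPKM, on 4 to 52 reads per library. Ror1, a receptor for Wnt5a, differed by -0.33 (standard error 0.229).

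Among 13 measured extracellular inhibitors, 6 were higher and 7 lower. Kremen2, a receptor for Dkk proteins, had the largest difference of the pathway and the smallest unadjusted p in limma, 0.0972. It ran from 0.151 to 0.636 FPKM with vehicle (median 0.466) and from 0.254 to 1.43 FPKM with GA (median 0.780), a difference of 0.69 (standard error 0.386). Sfrp1, which binds Wnts outside the cell, differed by -0.47 (standard error 0.339), and 5 of 6 GA values lay below the vehicle median. Dkk3, the most abundant (24.2 and 18.6 FPKM), differed by -0.40 (standard error 0.373), and 5 of 6 GA libraries were again below. The share of all tested genes with such a count was not computed, so nothing is read from these counts.

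R-spondins strengthen Wnt signals through Lgr receptors by removing the ligases Rnf43 and Znrf3 from the cell surface. Of 5 measured genes in this list, 1 was higher and 4 lower. Rspo1 differed by -0.43 (standard error 0.399), Lgr4, the most abundant (12.5 and 9.54 FPKM), by -0.40 (standard error 0.250) and Rnf43 by 0.08 (standard error 0.185). Of 18 measured genes of the beta-catenin route, 4 were higher and 14 lower. Beta-catenin itself (Ctnnb1) was at 115 and 109 FPKM, a difference of -0.08 (standard error 0.110). Pygo1, a nuclear partner of beta-catenin, differed by 0.53 (standard error 0.403) and Lef1 by -0.37 (standard error 0.532).

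The beta-catenin targets were 2 higher and 10 lower of 12 measured, with a median of -0.21. Sp5 differed by -0.52 (standard error 0.454) on 0 to 27 reads per library, Notum by 0.21 (standard error 0.623) and Myc, the most abundant (23.6 and 23.2 FPKM), by -0.03 (standard error 0.154). Axin2, named here after its values were seen because it is a common readout of the route, was at 3.34 ± 1.45 FPKM with vehicle and 2.54 ± 0.895 FPKM with GA (SD, n = 6 each), a difference of -0.36 (standard error 0.288). With the epithelium score as a covariate the targets were 4 higher and 8 lower, and the beta-catenin route was 8 higher and 10 lower. The planar polarity genes were 3 higher and 9 lower of 12 measured, a split that turned to 8 higher and 4 lower with that covariate and to 7 higher and 5 lower without vehicle library 1. Without GA library 2 it was 6 higher and 6 lower. Scrib was the most abundant (24.9 and 23.2 FPKM) and differed by -0.09 (standard error 0.140). Fzd3 differed by 0.20 (standard error 0.251) and Prickle2 by -0.43 (standard error 0.246). For Prickle2, 5 of 6 GA values lay below the vehicle median, a count whose share over all tested genes was not computed either.

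**Figure D5:**
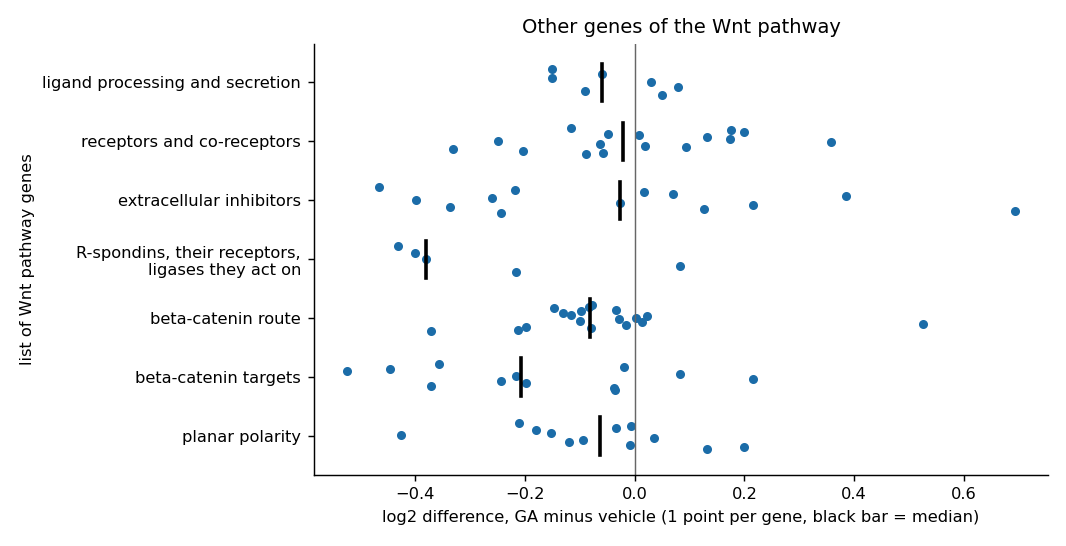
Log2 difference, GA minus vehicle, of the measured genes of 7 Wnt pathway lists (rows), with 1 point per gene and a black bar at the median of each list. The medians run from -0.38 for the R-spondin list to -0.02 for the receptors, and Kremen2 at 0.69 is the point farthest to the right.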

How the data were processed

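Total RNA from tongue tissue was sequenced in 12 libraries, 6 vehicle and 6 GA. According to the study's methods, HISAT2 placed the reads on mm10 and featureCounts counted the uniquely placed reads of each gene. The authors deposited FPKM values, 1 table per library with 55463 rows, of which 41.4% carried no gene name and were left out (16.2% to 25.5% of summed FPKM). From exon lengths of GENCODE release M21, low values came out as whole reads (within 0.02 of a read) in 97.5% to 98.3% of cases, which gave read numbers and library totals. FPKM were scaled by a trimmed mean of M values (factors 0.896 to 1.07) and are called FPKM in the text. The levels of Lipf, and the means and library counts set against the limit of 0.1 FPKM, are as deposited, without this scaling.

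Genes that averaged 0.1 FPKM or more were compared on log2(FPKM + 0.1) with limma 3.58.1 in R 4.3.3. This scale understates changes of low genes. The study's own test needs counts, so limma was used with the limits of its methods. The fit was also run on simulated data with known changes, with the spread of these 16852 genes and independent noise for each gene. Real libraries share tissue make-up, so that run checks the code and does not measure the power of the test here. Standard errors of members come from the group variances, those of other genes from limma. Permutation tests were run with numpy 2.4.6, with ranks and the Benjamini-Hochberg adjustment from scipy 1.17.1. Members, lists and tests were chosen with earlier results of these data known. Named pathway genes are those with the highest level, largest rise and largest fall of each list, and those most like Wnt6 are the 5 with the highest r, of which 1 is not reported here. Alternatives were another pseudocount, filter, scaling, covariates, a block, recovered reads (limma-voom) and leaving out each library.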

Additional observations from a re-analysis of the deposited data

Results flagged for a closer look

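Values of 12 libraries were screened for a lowest or highest library set apart from its group. The gap to the next library, as a share of the group's range, had to pass Dixon's 95% critical value for 6 libraries. Gaps and ranges of genes were taken on the log2 scale of the group comparison, while gene levels are printed below in FPKM. Of 80 groups of values, 8 passed, where chance passes about 1 in 20, and 5 of the 8 belong to GA library 6. In that library Wnt10a was highest at 39.5 FPKM (gap share 0.770), as were Wnt3a at 5.55 FPKM (0.748) and the inhibitor Dkk3 at 43.9 FPKM (0.789). Notum was lowest there at 0.223 FPKM (0.634), as was Rspo1 at 0.338 FPKM (0.678). In GA library 2, a library of high Lipf, Wnt4 was lowest at 26.5 FPKM (0.643) and the neutrophil score highest at 3.59 (0.723). In vehicle library 1, Scrib was highest at 35.2 FPKM (0.706).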

How the results depend on the processing

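The log2 difference of Wnt6 stayed between 0.92 and 1.27 except with a pseudocount of 1, where it was 0.52, and its ratio to the other members stayed between 0.97 and 1.32 except with that pseudocount, where it was 0.55. Leaving out single libraries gave 0.92 to 1.24 for Wnt6, 0.97 to 1.29 for the ratio and -0.10 to 0.20 for the median of the members, which was 0.25 with the epithelium score as a covariate. Over all genes, leaving out single libraries gave 0 to 1 calls. The 1 call came without vehicle library 4, with 287 genes at an unadjusted p below 0.05. With limma-voom on recovered reads 0 genes were called, with 337 at an unadjusted p below 0.05. Pathway genes gave 0 calls in every setting, with 0 to 3 at an unadjusted p below 0.05. Of the marker relations, leaving out single libraries gave 0 to 1 with an adjusted p below 0.05. The 1 relation was Wnt7b with the neutrophil score without GA library 6 (r = -0.80, permutation test, adjusted p = 0.0475). Wnt4 with the epithelium score turned to r = -0.10 without the 3 libraries of high Lipf. The number of ligands above 0.1 FPKM was 13, or 10 when every library had to reach it. A mean of at least 1 FPKM leaves out Wnt6, Wnt5b and Wnt10b, so no value for the member list was computed there.

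With the replicate number as a block, 0 genes were called and 229 had an unadjusted p below 0.05. Libraries with the same number did not deviate together (r from -0.37 to 0.08, 0 of 6 pairs over 0.1), so the numbers were not treated as pairs, and the log2 difference of Wnt6 was 1.10 with the block as without it. Wnt6, Wnt5b and Wnt10b rest on fewer than 100 reads in 12 of 12 libraries, Wnt3 in 7 and Wnt9a in 1, which limits the precision of their levels there.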
